A study of Mus musculus with 18 samples.

Results

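The genes described here encode the machinery that docks and fuses vesicles with the cell membrane: the SNARE proteins, the proteins that bind and time them, and the main proteins of the synaptic vesicle. They were chosen by symbol, as all synaptotagmins, syntaxins, syntaxin-binding proteins, VAMPs, SNAPs, synapsins, SV2 proteins, complexins, RAB3 GTPases and synaptogyrins that carry a number or letter of these series. The symbols match 68 genes, and 63 of them reached 1 CPM (read counts scaled to a common library total) in at least 4 of 16 libraries, as did 14214 of the 22021 genes listed. The other 5 were Cplx3, Cplx4, Syngr4, Syt8 and Syt10. Cplx3 reached 1 CPM in 1 library only, a pulldown after paclitaxel with 4.90 CPM, and the other four reached it in none. Matching by symbol also took in Snap91, which encodes the clathrin adaptor AP180 and is no SNARE, and SNAREs of the Golgi and endosomes.

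Fusion of a vesicle is driven by a SNARE on the vesicle (VAMP) that zips together with SNAREs on the cell membrane (a syntaxin and SNAP25). Complexin binds the assembled SNAREs, and a synaptotagmin senses calcium and sets off fusion. In a dorsal root ganglion (DRG), where the cell bodies of sensory neurons lie, these mRNAs supply proteins for terminals in the spinal cord and skin and for release of neuropeptides from large dense core vesicles.

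The mice carried Nav1.8-Cre, a Cre recombinase driven by the promoter of Scn10a, the sodium channel gene of most nociceptors, and Rosa26fsTRAP, which after Cre recombination makes the ribosomal protein L10a fused to EGFP. They were male and female littermates of 8 to 12 weeks on a C57BL/6J background, and all groups carried both alleles. The DRG extract was sequenced as such (input, all cells) or after pulldown of tagged ribosomes with antibodies to GFP (TRAP, translating ribosome affinity purification), so that each pulldown has the input of the same homogenate. Normal ganglia gave biosamples 1 to 4, and ganglia of mice given paclitaxel gave biosamples 5 to 8. Paclitaxel, a chemotherapy drug that causes painful neuropathy, was injected into the abdomen 4 times over 8 days at 4 mg/kg, 16 mg/kg in all. A vehicle group is described in the protocol, but the labels call the other samples normal and do not say whether they had vehicle. How many animals went into a biosample is not stated, so p-values measure the spread between these biosamples. Cre marks a cell for good, so the pulldown covers every cell that had used the promoter by then.

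Estimated depth was about 4270000 to 32710000 reads over 18 libraries. Pulldowns held fewer genes than inputs: 9715 to 13228 genes reached 1 CPM in the 8 pulldowns and 13152 to 14043 in the 8 inputs. Pulldown 7 is the mean of 2 subsamples, and in its first subsample 8081 genes reached 1 CPM and 12 of the 63 were at 0. Scn10a itself was at 443 to 1013 CPM in normal inputs, 567 to 1387 in normal pulldowns, 472 to 647 in paclitaxel inputs and 989 to 1633 in paclitaxel pulldowns, so the groups overlap in normal ganglia and not after paclitaxel. Of 14 nociceptor genes, 4 rose and 2 fell in normal ganglia, the falls being Trpv1 (−1.14, adjusted p = 0.0237) and Calca (−0.94, adjusted p = 0.000528), and 9 rose and 0 fell after paclitaxel. Of 10 pan-neuronal genes, 2 rose and 2 fell in normal ganglia, and 3 rose and 1 fell after paclitaxel. The falls were Map2 (−1.79 and −1.24, adjusted p = 4.91e-06 and 0.000441) and, in normal ganglia, Elavl4 (−1.32, adjusted p = 2.48e-05). The lists of other cells had falls and no rises, from 1 of 8 macrophage genes in normal ganglia (Mrc1) to all Schwann cell genes. Over all genes, 5.09% rose and 24.7% fell in normal ganglia, and 4.92% and 23% after paclitaxel. Lists this short are too small to set an absence of rises apart from these shares. Skeletal muscle genes summed to 240 to 1541 CPM in normal inputs and 159 to 1646 in normal pulldowns. Of 10 Schwann cell genes, 10 fell in normal ganglia and 9 after paclitaxel, and their summed level was 5943 to 10605 CPM in normal inputs against 1969 to 3141 in normal pulldowns. Of 10 satellite glia and 10 large-fibre neuron genes, 7 each fell in each treatment. In normal ganglia the satellite glia list summed to 1477 to 3348 CPM against 793 to 1951, and the large-fibre neuron list to 1082 to 1569 against 589 to 1155. None of the 10 marker lists had a gene at 0 in all libraries of a group.

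RefSeq promoter windows were matched for 50 of the 63 genes, as 64 windows of the 250 bases before the start (GRCm38.p6). The windows of 5 genes named in the results are shown: Cplx1, Rab3d and Stx2, which rose in at least 1 pulldown comparison, and Snap23 and Snap91, which fell in both. Capitals mark the GC box GGGCGG, read on both strands. Each window is printed 5′ to 3′ on the strand of its gene.
Cplx1 (chr5:108550028-108550277, minus strand): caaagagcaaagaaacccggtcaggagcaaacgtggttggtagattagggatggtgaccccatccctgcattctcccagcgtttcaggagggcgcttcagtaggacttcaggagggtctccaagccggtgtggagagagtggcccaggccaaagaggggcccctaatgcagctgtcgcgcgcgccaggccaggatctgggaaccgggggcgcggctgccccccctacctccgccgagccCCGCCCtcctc
Rab3d (chr9:21918184-21918433, minus strand): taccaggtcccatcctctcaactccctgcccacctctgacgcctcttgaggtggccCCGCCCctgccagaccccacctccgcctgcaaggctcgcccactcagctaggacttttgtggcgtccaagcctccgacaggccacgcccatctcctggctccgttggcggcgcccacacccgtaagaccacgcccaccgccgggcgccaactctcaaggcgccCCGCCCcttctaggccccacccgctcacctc
Stx2 (chr5:129008573-129008822, minus strand): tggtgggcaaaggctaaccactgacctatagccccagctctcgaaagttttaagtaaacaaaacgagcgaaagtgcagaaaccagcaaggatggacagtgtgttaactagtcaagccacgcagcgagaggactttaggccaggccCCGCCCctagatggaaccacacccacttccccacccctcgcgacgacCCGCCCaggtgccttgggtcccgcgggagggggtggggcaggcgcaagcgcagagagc
Snap23 (chr2:120567421-120567670, plus strand): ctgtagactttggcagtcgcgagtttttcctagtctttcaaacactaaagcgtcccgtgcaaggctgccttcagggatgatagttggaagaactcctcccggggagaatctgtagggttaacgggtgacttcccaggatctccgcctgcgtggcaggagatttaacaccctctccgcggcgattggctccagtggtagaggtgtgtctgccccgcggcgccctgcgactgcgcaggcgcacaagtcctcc
Snap91 (chr9:86880709-86880958, minus strand): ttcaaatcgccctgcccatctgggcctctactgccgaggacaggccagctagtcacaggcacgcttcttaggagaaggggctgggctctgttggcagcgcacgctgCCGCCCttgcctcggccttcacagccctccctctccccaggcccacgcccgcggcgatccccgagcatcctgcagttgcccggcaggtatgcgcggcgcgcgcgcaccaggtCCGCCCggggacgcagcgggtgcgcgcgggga
Cplx1 has 1 GC box in this window, Rab3d, Stx2 and Snap91 have 2 each, and Snap23 has 0. The window of Cplx2, which rose in both treatments and is not shown, has 0. A link between GC boxes and direction of change was not tested. Across the 64 windows, 40 held a GC box (62.5%), against 32.7% of all 32851 windows. The 64 belong to genes that passed the level filter, while the 32851 were not filtered by level. Median GC content was 61.6% against 52.4%, and the median number of CpG pairs was 15 against 6. None of the 5 windows held the cyclic AMP response element TGACGTCA or TATAAA, which 1.55% and 12.4% of all windows and 3.12% and 7.81% of the 64 held. A second window of Stx2, not shown, held TATAAA at 2 places and no GC box.

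In the inputs the 63 genes summed to 8596 to 11141 CPM. Because each 3′ read counts 1 transcript end, CPM is compared between genes here without dividing by length. Averaged over the 8 inputs, Syt11 was at 1391 CPM, Snap25 at 1190, Syt4 at 899, Rab3c at 707, Syt7 at 582 and Syt1 at 564. In normal inputs alone Snap25 (1493 ± 478, SD, n = 4) and Syt11 (1438 ± 236) differed by less than their spread. SYT4 and SYT11 are synaptotagmins that bind calcium poorly or not at all, and SYT1 is a fast calcium sensor. At the other end, 11 genes averaged under 5 CPM over all libraries, among them Syt3, Syt13, Syt15, Syt16, Syt17, Stx11 and Syn3. Stx1a, a syntaxin of the synapse, was at 2.35 to 31.8 CPM over the libraries, far below Snap25 and Syt1.

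In normal ganglia, 6 of the 63 genes rose in the pulldown relative to the input of the same homogenate and 15 fell, tested with limma on log2(CPM + 1) across all genes with Benjamini-Hochberg adjustment and a threshold of 0.05; all changes are on that log2 scale. Cplx1, Cplx2, Syt1, Syt5, Syt9 and Rab3d rose. Snap23, Snap25, Stx3, Vamp1, Vamp3, Vamp4, Stx6, Stx17, Rab3a, Rab3c, Syn2, Sv2c, Syt15, Syt17 and Snap91 fell. Over all genes, 5.09% rose and 24.7% fell, against 9.52% and 23.8% of these, and the median log2 change was −0.60 for them and −0.66 for all genes. After paclitaxel, 8 rose and 17 fell: 12.7% and 27.0%, against 4.92% and 23% of all genes, with medians of −0.34 and −0.56. Cplx2, Syt1, Syt5 and Syt9 rose in both treatments, and Snap23, Snap25, Stx3, Vamp1, Vamp3, Rab3c, Syt17 and Snap91 fell in both. No gene was called in opposite directions, and 29 were called in neither.

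**Figure D1:**
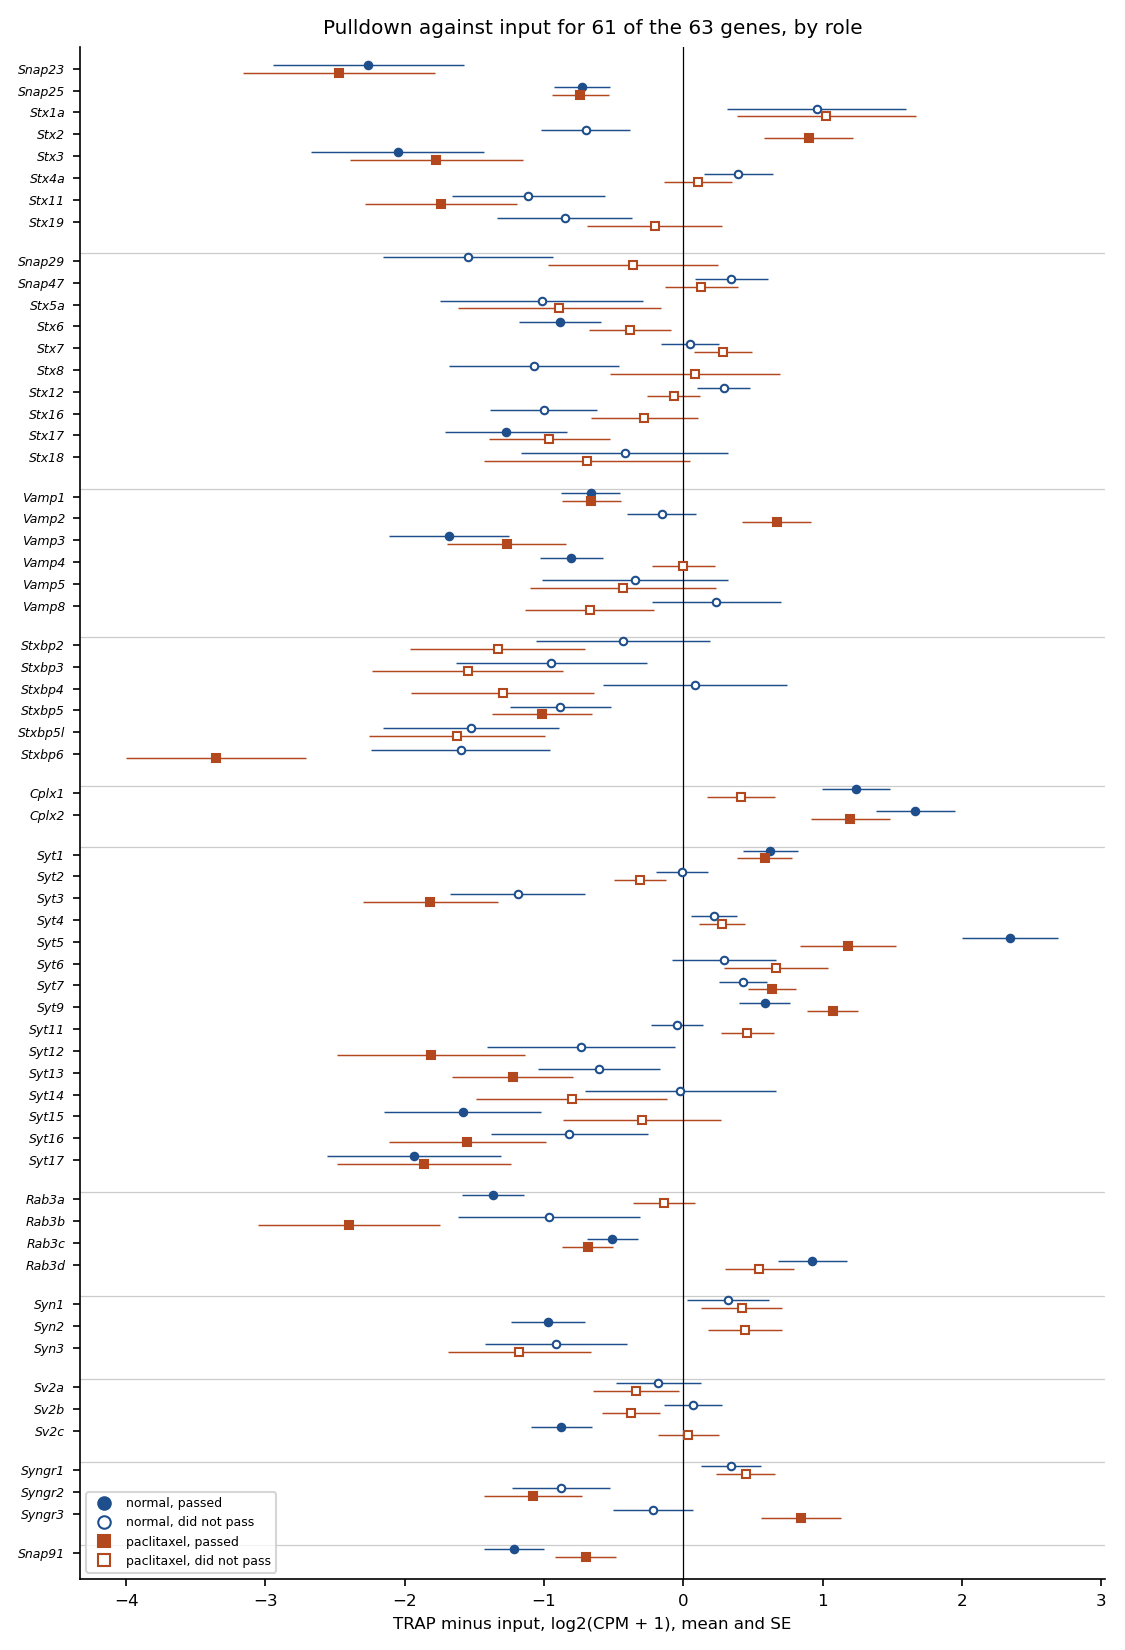
Pulldown minus input on the log2(CPM + 1) scale for 61 of the 63 genes, with standard errors, in normal (circles) and paclitaxel (squares) ganglia, grouped by role from the SNAREs at the top to the clathrin adaptor Snap91 at the bottom. Filled symbols passed the test (limma, adjusted p under 0.05). Complexins lie to the right of 0 in both treatments, and Snap23 lies near −2 in both.

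Of the complexins, which bind the assembled SNARE complex and control when it fuses, Cplx2 rose in both treatments and Cplx1 in normal ganglia. Cplx2 was at 23.7, 29.2, 38.8 and 29.8 CPM in normal inputs 1 to 4 and at 95.1, 76.2, 108 and 114 in the paired pulldowns. After paclitaxel its inputs 5 to 8 were at 38.8, 36.3, 36.1 and 35.0 CPM and its pulldowns at 95.3, 129, 84.7 and 50.8. Every pulldown exceeded every input, and the change was 1.67 ± 0.29 (SE, n = 4 pairs, limma adjusted p = 0.000187) in normal and 1.20 ± 0.29 (adjusted p = 0.00414) in paclitaxel ganglia. For every gene the spread behind SE and p was estimated over the pairs of both treatments together, so the SE is the same in each. The paclitaxel call was lost without biosamples 1, 2, 5 and 6, whose pulldowns held the fewest genes (0.86, adjusted p = 0.0867). Cplx1 was at 79.5, 80.0, 114 and 75.7 CPM in normal inputs and 237, 166, 203 and 220 in normal pulldowns, a change of 1.24 ± 0.25 (adjusted p = 0.000766). After paclitaxel the inputs were at 93.4, 92.8, 139 and 133 CPM and the pulldowns at 102, 220, 227 and 101. Pulldowns 5 and 8 were not far from their inputs, which left the change at 0.42 ± 0.25 (adjusted p = 0.206). The difference between the treatments was −0.82 ± 0.35 (interaction, adjusted p = 0.369), so no difference between treatments was called for Cplx1.

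The synaptotagmins, calcium sensors among them, went both ways: of 15, 3 rose and 2 fell in normal ganglia (median −0.02), and 4 rose and 5 fell after paclitaxel (median −0.30). Over all genes 5.09% rose and 24.7% fell in normal ganglia, and 4.92% and 23% after paclitaxel. All the rises were in synaptotagmins averaging at least 50 CPM and all the falls in those under 50 CPM. Shares of all genes by level are given below. Syt5 was the largest rise in normal ganglia: inputs were at 16.4, 30.2, 31.98 and 15.0 CPM and pulldowns at 197, 134, 95.6 and 73.3. The change was 2.35 ± 0.35 (adjusted p = 4.04e-05), and all pulldowns lay above all inputs. After paclitaxel the inputs were at 28.5, 24.2, 23.3 and 20.8 and the pulldowns at 42.0, 108, 44.0 and 48.6, a change of 1.18 ± 0.35 (adjusted p = 0.0147). That call rested on biosample 6, without which it was 0.87 (adjusted p = 0.127), and it was lost without the 4 biosamples with the fewest pulldown genes (1.04, adjusted p = 0.0746). Syt9 was at 262, 259, 239 and 196 CPM in normal inputs and 404, 380, 393 and 268 in normal pulldowns, against 167, 167, 106 and 97.3 and 346, 286, 271 and 214 after paclitaxel. All 8 pulldowns exceeded their inputs (0.58 ± 0.18, adjusted p = 0.0206 in normal, lost without biosample 1, adjusted p = 0.058, or 3, adjusted p = 0.0785, or the 4 biosamples with the fewest pulldown genes, adjusted p = 0.0993; 1.07 ± 0.18, adjusted p = 0.000308 after paclitaxel).

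Syt1, the classic fast sensor at the nerve terminal, was at 562, 672, 597 and 420 CPM in normal inputs and 572, 755, 1145 and 1087 in normal pulldowns, with overlap between the fractions. The change was 0.63 ± 0.20 (adjusted p = 0.0219) in normal and 0.58 ± 0.20 (adjusted p = 0.0321) after paclitaxel, and it was higher in 8 of 8 pairs. It fell short of the threshold without biosample 3 (0.52, adjusted p = 0.106) or 4 (0.38, adjusted p = 0.16) in normal ganglia. After paclitaxel it did so without any 1 of biosamples 5 to 8 (adjusted p = 0.0758, 0.075, 0.136 and 0.0964). Syt7, which senses slower calcium signals, rose only past the paclitaxel threshold (0.64 ± 0.17, adjusted p = 0.00917; 0.58, adjusted p = 0.0669, without biosample 6; 0.57, adjusted p = 0.0943, without the 4 biosamples with the fewest pulldown genes), with 0.43 ± 0.17 (adjusted p = 0.0621) in normal ganglia, and the difference between treatments was not called (adjusted p = 0.791). Syt2, a fast sensor used by many large neurons, had changes of −0.01 ± 0.19 and −0.31 ± 0.19 that passed neither test. Syt4 and Syt11, the synaptotagmins with the highest levels, passed neither (Syt4: 0.22 and 0.28; Syt11: −0.05 and 0.46). Among the synaptotagmins of low level, Syt17 fell in both (−1.93 and −1.86), Syt15 in normal ganglia only by the call, and Syt3, Syt12, Syt13 and Syt16 after paclitaxel only by the call. Syt3, Syt13, Syt16 and Syt17 reached 1 CPM in fewer than 4 of the 8 pulldowns and entered the test through their inputs, where they are higher, so the filter itself favours a fall for them. Each of these calls was lost without 1 or more of the biosamples of its treatment, for Syt17 without 1, 2 or 3 (adjusted p = 0.128, 0.0503 and 0.0734) and 5, 6 or 7 (adjusted p = 0.119, 0.14 and 0.145).

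**Figure D2:**
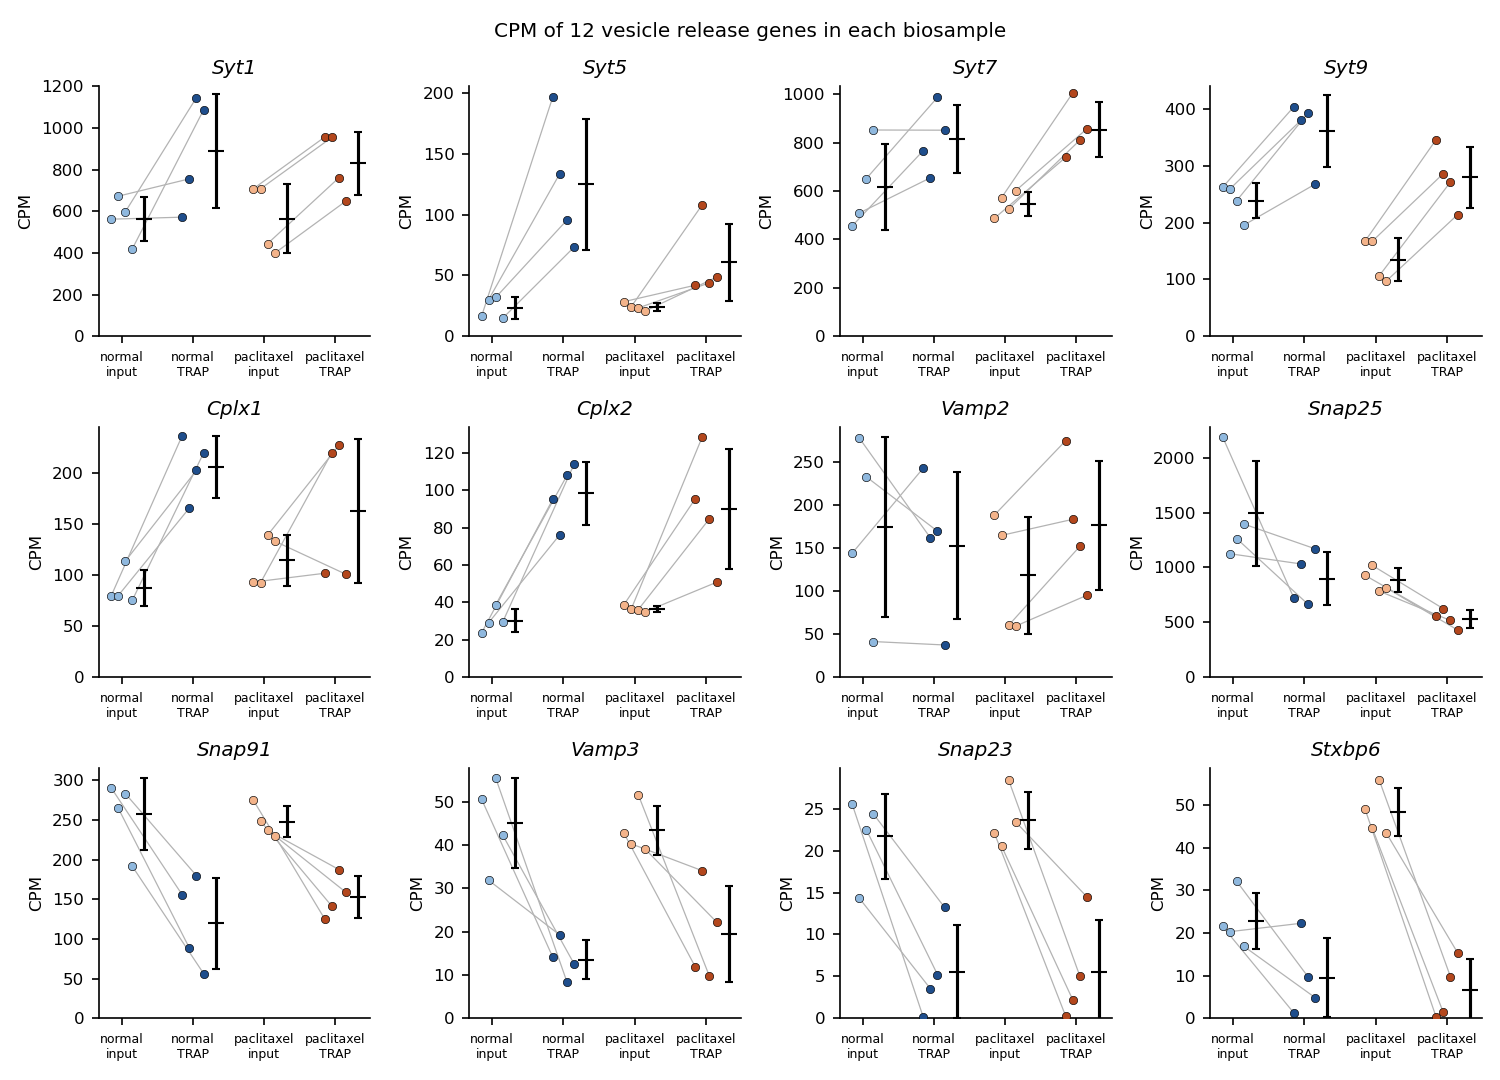
CPM of 12 genes in each biosample, input and pulldown joined by a line within each homogenate; the bar beside each group is the mean and SD over 4 biosamples, clipped at 0. Cplx2 and Syt5 pulldowns all lie above their inputs, and for Snap25, Snap91, Vamp3 and Snap23 all 8 lines point down.

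Among the SNAREs of the cell membrane, SNAP25 is the neuronal member and SNAP23 the widely expressed one, and both fell. Snap25 was at 2190, 1125, 1262 and 1395 CPM in normal inputs and 724, 1032, 665 and 1170 in normal pulldowns (−0.72 ± 0.20, adjusted p = 0.0103), and without biosample 1 the change was −0.43 (adjusted p = 0.124). After paclitaxel it was at 929, 1020, 785 and 814 in the inputs and 558, 625, 517 and 431 in the pulldowns (−0.74 ± 0.20, adjusted p = 0.0095), lower in 8 of 8 pairs. Snap23 was at 25.6, 14.4, 22.5 and 24.4 CPM in normal inputs and at 0.15, 3.54, 5.22 and 13.2 in the pulldowns, a change of −2.26 ± 0.69 (adjusted p = 0.0172) that without biosample 1 was −1.50 (adjusted p = 0.143). After paclitaxel it was at 22.1, 20.5, 28.4 and 23.4 in the inputs and 0.26, 2.2, 5.02 and 14.5 in the pulldowns (−2.47 ± 0.69, adjusted p = 0.0107; without biosample 5, −1.90, adjusted p = 0.0881). The lowest pulldowns of Snap23, in biosamples 1 and 5, are also among the libraries with the fewest genes, with 9715 and 10884 genes at 1 CPM. Without the 4 biosamples with the fewest pulldown genes, both Snap23 calls were lost. The change was then −1.38 (adjusted p = 0.115) in normal ganglia and −1.47 (adjusted p = 0.101) after paclitaxel. That fit leaves 2 pairs a treatment, and the part of gene number alone was not tested. Stx3, a syntaxin best known from epithelia and the retina, fell too (−2.05 and −1.77), though not without biosample 1 or 2 (adjusted p = 0.0595 and 0.0618) in normal ganglia, or 5, 6 or 7 (adjusted p = 0.334, 0.0577 and 0.0728) after paclitaxel. Stx1a passed neither test (0.96 ± 0.64 and 1.03 ± 0.64).

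The vesicle partners split. Vamp3, the broadly expressed VAMP, was at 50.6, 31.9, 55.4 and 42.2 CPM in normal inputs against 14.1, 19.2, 8.37 and 12.6 in the pulldowns (−1.68 ± 0.43, adjusted p = 0.0059; −1.38, adjusted p = 0.0509 without biosample 3). After paclitaxel the change was −1.27 ± 0.43 (adjusted p = 0.0309), and it was not called without biosample 5 (adjusted p = 0.131) or 7 (adjusted p = 0.179). Vamp1, a neuronal VAMP, fell by 0.66 in both treatments, but not without biosample 2 or 3 (adjusted p = 0.108 and 0.0645), or 5, 6 or 8 (adjusted p = 0.0672, 0.15 and 0.0585). Vamp2, the main VAMP of small synaptic vesicles, rose after paclitaxel (0.67 ± 0.25, adjusted p = 0.0456) and was not called without biosample 3, 5, 7 or 8 (adjusted p = 0.0559 to 0.255). In normal ganglia its inputs ran from 41.5 to 278 CPM and its pulldowns from 37.5 to 243 (−0.16 ± 0.25).

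Snap91, the neuronal clathrin adaptor, was at 291, 265, 283 and 192 CPM in normal inputs and 156, 88.7, 180 and 56.4 in the pulldowns (−1.22 ± 0.22, adjusted p = 0.000298). After paclitaxel the change was −0.70 ± 0.22 (adjusted p = 0.0199), lost without biosample 5 (adjusted p = 0.138) or 6 (adjusted p = 0.0833). Among the RAB3 GTPases, which tether vesicles, Rab3d rose in normal ganglia from 56.2 to 77.6 CPM in the inputs to 79.1 to 229 in the pulldowns (0.93 ± 0.25, adjusted p = 0.00808; 0.72, adjusted p = 0.0757, without biosample 3). Rab3c fell in both treatments (−0.51 and −0.69); in normal ganglia that call was lost in 6 of 8 fits that left out 1 biosample, all but those without 2 or 6 (adjusted p = 0.052 to 0.179), and after paclitaxel in none. Rab3b fell after paclitaxel, at 8.79, 8.81, 10.4 and 12.2 CPM in the inputs and 0.66, 0.03, 0.33 and 7.19 in the pulldowns. Its change was −2.40 ± 0.65 (adjusted p = 0.00935), lost without biosample 6 (adjusted p = 0.0581) or 7 (adjusted p = 0.0561). In normal ganglia the Rab3b change was −0.96 ± 0.65 (adjusted p = 0.262). Rab3a, the main RAB3 of synapses, fell in normal ganglia from 171, 384, 287 and 117 CPM to 64.1, 88.4, 214 and 39.4 (−1.37 ± 0.22, adjusted p = 0.000113). After paclitaxel it was at 347, 302, 274 and 278 CPM in the inputs and 306, 284, 263 and 238 in the pulldowns (−0.14 ± 0.22, adjusted p = 0.664). Sv2c and Syn2 followed Rab3a in their calls: −0.88 ± 0.22 (adjusted p = 0.00481) and −0.97 ± 0.27 (adjusted p = 0.00932) in normal ganglia, and 0.04 ± 0.22 and 0.45 ± 0.27 after paclitaxel, where neither passed. The Syn2 fall was not called without biosample 1 (−0.59, adjusted p = 0.103).

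Stxbp6 (amisyn), which binds SNAREs in place of a VAMP, had the largest fall after paclitaxel: 49.1, 44.7, 55.9 and 43.5 CPM in inputs 5 to 8 and 0.26, 1.38, 9.80 and 15.4 in the pulldowns (−3.35 ± 0.65, adjusted p = 0.000857). In normal ganglia the change was −1.60 ± 0.65 (adjusted p = 0.0621), with one pulldown above its input. Of 7 syntaxin-binding genes, 0 rose in either treatment, where 5.09% and 4.92% of all genes did. In normal ganglia 0 of them fell, against 24.7% of all genes, and after paclitaxel 2 fell, against 23%. Counts among 7 genes are too small to set this family apart from all genes.

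The counts differed with level. Of the 31 genes that averaged at least 50 CPM, 6 rose and 9 fell in normal ganglia (median −0.01), where 14.9% of 3987 genes at this level rose, 32.03% fell and the median was −0.28. Of the 32 under 50 CPM none rose and 6 fell (median −0.93), against 1.27% and 21.8% of 10227 genes (median −0.80). After paclitaxel the higher set had 8 rises and 4 falls (median 0.28), against 15.1% and 20.5% of all genes at this level (median −0.08). The lower set had 0 and 13 (median −1.13), against 0.939% and 23.9% (median −0.79). Of the 63 genes, 6 reached 1 CPM in fewer than 4 pulldowns, and 0 did so in fewer than 4 inputs. Those 6 (Stx19, Syn3, Syt3, Syt13, Syt16 and Syt17) could pass the filter only with the help of their inputs, and they make up 1 of the falls in normal ganglia and 4 after paclitaxel. Pulldowns also spread more for the low set: the median SD of the log2 values was 1.13 in normal pulldowns and 0.48 in normal inputs. The number of the 63 genes at 1 CPM was 62 or 63 in each input, 49, 53, 58 and 60 in normal pulldowns 1 to 4 and 48, 50, 56 and 61 in paclitaxel pulldowns 5 to 8.

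**Figure D3:**
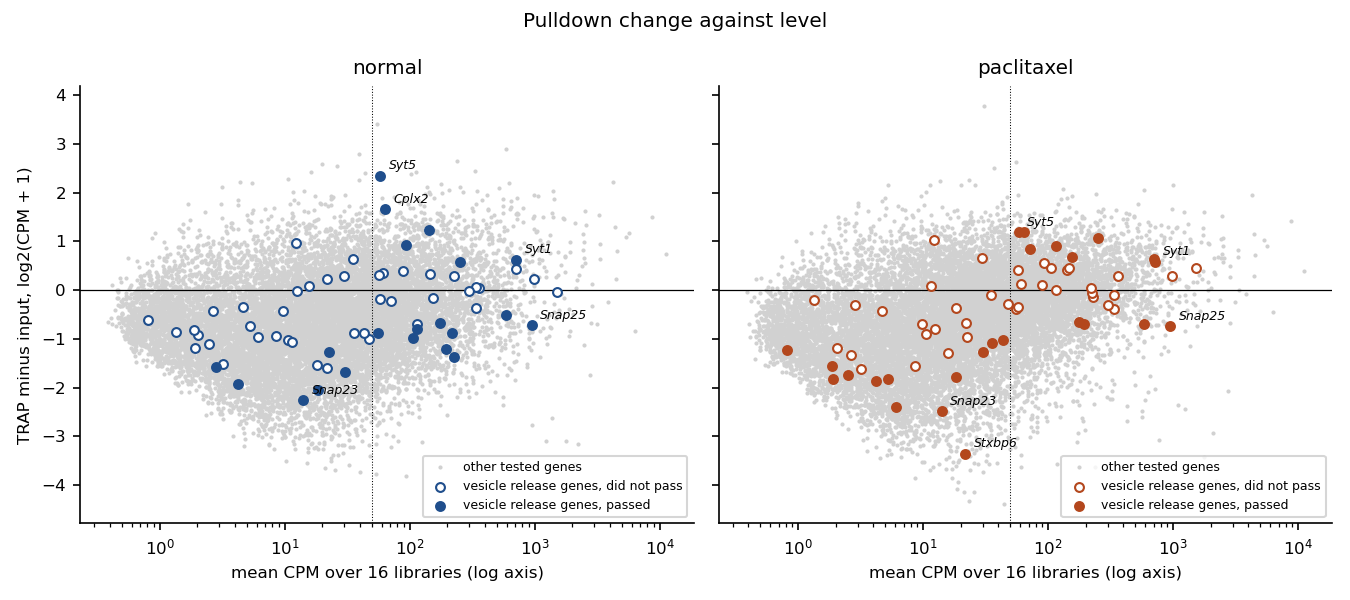
Pulldown minus input on the log2(CPM + 1) scale against mean CPM over 16 libraries (log axis) for the 63 genes over all 14214 tested genes in grey; the dotted line is 50 CPM. Below 50 CPM no vesicle release gene that passed lies above 0.

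The division between rises and falls depended on scaling. CPM gives every library the same total, and with median-ratio scaling the median of all genes moved by 0.33 in normal and 0.27 in paclitaxel ganglia; with quantile normalization it moved by 0.66 and 0.60. The share of called genes that rose went from 17.1% to 45.1% and 48.5% in normal ganglia, and from 17.6% to 39.3% and 47.6% after paclitaxel. In normal ganglia the calls of Cplx1, Cplx2, Syt5, Syt9 and Rab3d as higher, and Rab3a, Snap91 and Vamp3 as lower, held under all 3 scalings. After paclitaxel those of Cplx2, Syt5, Syt9, Syt7, Stx2, Syngr3 and Vamp2 as higher and Snap23 and Stxbp6 as lower did. The falls of Snap25 (−0.28, adjusted p = 0.329 in normal and −0.42, adjusted p = 0.14 after paclitaxel) and of Rab3c (−0.07 and −0.37) were not called under median-ratio scaling, where Syt4 and Syngr1 rose in both treatments. Under quantile normalization Snap25 was called lower in both (−0.92, adjusted p = 0.00226 and −0.90, adjusted p = 0.0031). So was Rab3c (−0.61, adjusted p = 0.0215 and −0.84, adjusted p = 0.00265). Syt1 was not called under quantile normalization in either treatment (adjusted p = 0.0931 and 0.0908). Without the 4 biosamples with the fewest pulldown genes, which leaves 2 pairs a treatment, the rises of Cplx1, Cplx2, Rab3d, Syt1 and Syt5 and the falls of Rab3a, Rab3c, Snap91, Stx3, Stx6, Sv2c, Vamp3 and Vamp4 were still called in normal ganglia. After paclitaxel the rises of Stx2, Syt1, Syt9 and Vamp2 and the falls of Rab3c, Snap25, Stxbp6 and Vamp3 were.

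**Figure D4:**
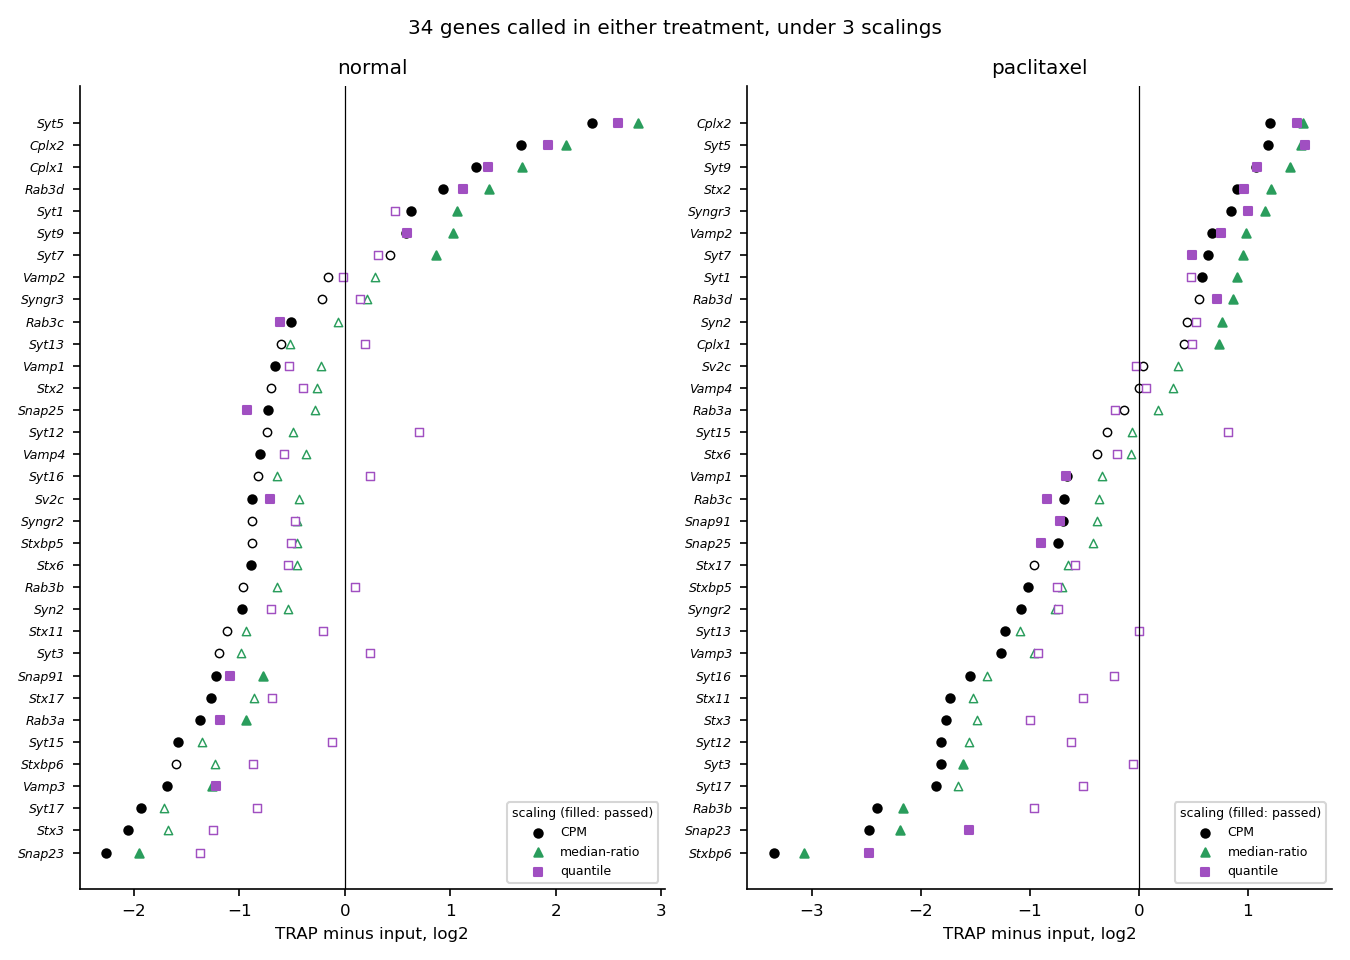
Pulldown minus input (log2) for the 34 genes called in either treatment under CPM, median-ratio scaling and quantile normalization; filled symbols passed. Syt5 and Cplx2 pass under all 3 in both panels. Snap25 and Rab3c move toward 0 under median-ratio scaling but pass as lower under quantile normalization.

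Between treatments, no gene of the 63 passed the test of a change in the pulldown-input difference (0 called by limma in the interaction, 9 at an unadjusted p under 0.05, lowest adjusted p 0.0946 for Rab3a). In all, 0.162% of genes had a positive and 0.0281% a negative interaction. Without biosample 3, Rab3a (1.54, adjusted p = 0.0218) and Syn2 (1.72, adjusted p = 0.0385) were called. The comparison of pulldowns that follows uses the same pulldown libraries.

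Within the pulldown, 3 genes were higher after paclitaxel and none lower (4.76% and 0%, against 1.33% and 0.492% of all genes; 15 had an unadjusted p under 0.05). Stx2, a syntaxin of the plasma membrane found in many tissues, was at 42.4, 44.9, 52.1 and 61.6 CPM in normal pulldowns and 219, 111, 303 and 175 in paclitaxel pulldowns (1.91 ± 0.32, adjusted p = 0.0136). The groups do not overlap. Its inputs do: 53.9, 255, 73.6 and 43.1 in normal and 95.7, 78.8, 128 and 109 after paclitaxel (0.31 ± 0.41, adjusted p = 0.725). Syngr3, a synaptic vesicle membrane protein, was at 20.9, 39.2, 73.4 and 23.6 CPM and at 101, 94.7, 191 and 121 (1.79 ± 0.41, adjusted p = 0.0423), again without overlap. Rab3a was at 64.1, 88.4, 214 and 39.4 against 306, 284, 263 and 238 (1.69 ± 0.40, adjusted p = 0.0499). These calls depended on single biosamples. Stx2 was not called without biosample 1, 2, 5, 7 or 8 (adjusted p = 0.0526 to 0.118), and Syngr3 and Rab3a were called only without biosample 3 (in the other 7 fits, adjusted p = 0.0557 to 0.172 and 0.0856 to 0.177). The pulldown also exceeded its own input after paclitaxel for Stx2 (0.90 ± 0.32, adjusted p = 0.0393, lost without any 1 of biosamples 5 to 8, adjusted p = 0.0602 to 0.153) and for Syngr3 (0.85 ± 0.29, adjusted p = 0.0315, lost without 5, 6 or 7, adjusted p = 0.0894 to 0.188). Just short of the threshold, Sv2c, an SV2 protein, was at 110, 112, 181 and 43.2 against 307, 305, 293 and 234 CPM (1.51 ± 0.36, adjusted p = 0.05003). Sv2b, another SV2 protein, was lower without overlap, at 375, 412, 375 and 573 CPM in normal and 180, 209, 156 and 307 in paclitaxel pulldowns (−1.05 ± 0.27, adjusted p = 0.0604). It was called lower under median-ratio scaling (−1.27, adjusted p = 0.0264) and quantile normalization (−1.04, adjusted p = 0.0298). Vamp4 (0.99 ± 0.26, adjusted p = 0.0667) and Syn2 did not overlap either. Lower without overlap, and not called, were Snap25 (−0.72, adjusted p = 0.164), Rab3c (−0.62, adjusted p = 0.201), Stx12 (−0.77, adjusted p = 0.17) and Vamp8 (−1.38, adjusted p = 0.252). The share of all genes without overlap is not given here, so lack of overlap does not set these genes apart. Syn2, a synapsin that tethers vesicles to the cytoskeleton, was at 23.7, 85.1, 103 and 40.9 against 166, 136, 171 and 113 (1.40 ± 0.41, adjusted p = 0.0939). Without biosample 3, Sv2c and Syn2 were called (adjusted p = 0.0174 and 0.0432). Under median-ratio scaling Stx2 alone of the 3 passed (1.69, adjusted p = 0.0211; Syngr3 0.0538, Rab3a 0.0647).

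**Figure D5:**
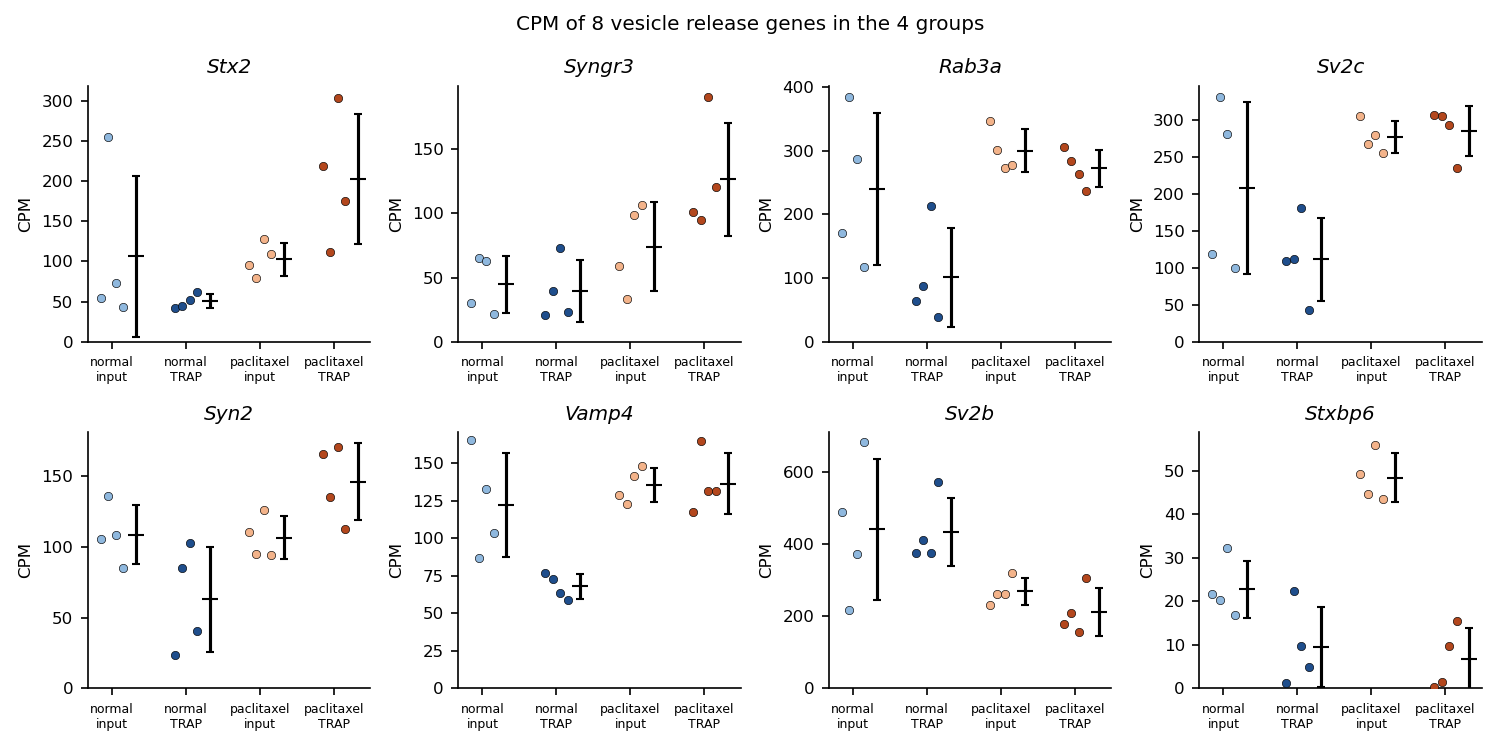
CPM of 8 genes in each biosample of the 4 groups, with mean and SD to the right of each group (clipped at 0). In the pulldown, Stx2, Syngr3, Rab3a, Sv2c, Syn2 and Vamp4 lie higher after paclitaxel without overlap, and Sv2b lies lower without overlap. For Stxbp6 the paclitaxel inputs lie above the normal inputs.

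Normal inputs were themselves uneven for several of these genes. Rab3a was at 171, 384, 287 and 117 CPM, Sv2c at 119, 331, 281 and 99.6 and Syngr3 at 30.5, 65.3, 62.7 and 21.3, each highest in biosamples 2 and 3. In the paclitaxel inputs Rab3a ran only from 274 to 347 and Sv2c from 255 to 306. The summed large-fibre neuron markers were 1082 to 1569 CPM in normal inputs and 1572 to 1904 in paclitaxel inputs; their part in the differences was not tested.

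In the whole extract, Stxbp6 alone was higher after paclitaxel (1.59% of the 63, against 1.46% of all genes; 0.183% of all genes were lower; 8 of the 63 had an unadjusted p under 0.05). It was at 21.6, 20.3, 32.1 and 16.9 CPM in normal and 49.1, 44.7, 55.9 and 43.5 in paclitaxel inputs (1.09 ± 0.23, adjusted p = 0.0335), with no overlap. The call was lost in 6 of 8 fits that left out 1 biosample, all but those without 2 or 3, with changes from 0.96 to 1.13 (adjusted p = 0.0518 to 0.165). Under quantile normalization it was 1.04 (adjusted p = 0.055). Syt9 inputs did not overlap between treatments either (−0.86 ± 0.22, adjusted p = 0.0649), and with median-ratio scaling Syt9 was lower (−0.96, adjusted p = 0.0463). Nor did the inputs of Snap25 (−0.71, adjusted p = 0.142), Stx12 (−0.42, adjusted p = 0.27), Vamp8 (−0.47, adjusted p = 0.26) and Syt12 (1.12, adjusted p = 0.0886), none of them called. Marker lists moved in the same inputs. Pan-neuronal genes summed to 12508 to 15239 CPM in normal and 7579 to 9568 in paclitaxel inputs, with 1 of 10 called lower (Uchl1, −1.14, adjusted p = 0.0482). The median change of the 10 genes was −0.05, so the fall of the sum was not shared across the list. Erythroid genes summed to 847 to 1189 against 1600 to 3726, and fibroblast (1775 to 3695 against 2927 to 4298) and satellite glia genes (1477 to 3348 against 3023 to 4218) to ranges that overlap. Called higher were 2 of 5 erythroid, 2 of 10 satellite glia (Fabp7 and Slc1a3), 1 of 8 macrophage and 1 of 6 endothelial genes. Schwann cell genes in paclitaxel inputs (6820 to 8936) lay within the normal range. Their part in the Stxbp6 and Syt9 results was not tested. In bulk tissue, more cells of a type and more RNA per cell cannot be told apart.

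Of 13 dense core vesicle genes, 3 rose in normal ganglia and 5 after paclitaxel and none fell: Cpe (1.16 and 0.67), Scg3 (0.81 and 1.27) and, in normal ganglia, Scg2 (0.65), which encode a peptide processing enzyme and granins. Of 23 endocytosis genes, 4 rose and 6 fell in normal ganglia. Of 33 tested active zone and priming genes, 3 rose and 7 fell there, led by Sytl2 (−1.53) and Rph3a (1.16), and of 19 other synaptic vesicle genes 1 rose and 6 fell. In that last list Sncg, a synuclein of sensory neurons, rose (1.62), and Synpr (synaptoporin) fell (−1.53). After paclitaxel, 2 endocytosis genes rose and 5 fell, and 2 active zone and priming genes rose and 6 fell. Of the other synaptic vesicle genes, 2 rose and 4 fell there. These counts stand beside 5.09% rising and 24.7% falling over all genes in normal ganglia, and 4.92% and 23% after paclitaxel.

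Exons of 10 of the 63 genes overlap those of another tested gene, 9 on the opposite strand (for example Rab3a with Mpv17l2 and Syn2 with Timp4) and 1 on the same (Syngr2 with Gm20708). Whether counting used strand is not given in the sources used here, so reads of these pairs may not be separable.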

How the data were processed

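DRG input and pulldown libraries of 8 biosamples were made with the QuantSeq 3′ mRNA kit, per the labels' protocols. Cufflinks 2.2.1, Bowtie2 2.2.9, FastQC 0.11.5, TopHat2 2.1.1 and the build GRCm38.p4 are named in the submitters' processing notes; strand setting and molecular identifiers are not given in the sources used here. The deposited table is headed TPM, but every column has the same total, and 98.0% to 99.0% of non-zero values per library are whole multiples of one step (tolerance 0.0051 CPM), so the authors' values were treated as CPM and depth was estimated from the step. The 2 subsamples of biosample 7 were averaged, giving 16 libraries, and 2 merged columns were not used. Genes with at least 1 CPM in 4 libraries were tested on log2(CPM + 1), which understates changes of low genes, with limma 3.58.1 in R 4.3.3 (trend, not robust), two-sided, with Benjamini-Hochberg adjustment over 14214 genes and a threshold of 0.05. Pulldown and input were compared with biosample as a block, because both come from one homogenate per the labels' protocols. Deviations from the group means of the same biosample correlated at 0.0534 (biosample 1) to 0.376 (biosample 4). The input of biosample 1 correlated more with another pulldown of its treatment (0.117). For the other biosamples the highest such value was lower than their own, narrowly for 2 (0.139 against 0.152), 5 (0.112 against 0.130) and 7 (0.165 against 0.168). This was 1 fit over 16 libraries with a shared estimate of spread, so leaving out a biosample of 1 treatment can also change calls of the other. Treatments were compared within a fraction over 8 libraries. Genes to describe were chosen by a rule. It took up to 6 per comparison and direction with the largest change among called genes averaging at least 5 CPM in the higher group. It also took the core exocytosis genes, a set of further members, and up to 4 called genes of each related list. Per-sample values were given for only part of these genes. For others, such as Stx3, Syt7 and Vamp1, changes alone were given, and not every gene chosen is described. Members, lists and rule were chosen with earlier results of these data known. Alternatives were 2 pseudocounts, 2 filters, 2 scalings, no block, each subsample, omitting biosamples 1, 2, 5 and 6 (whose pulldowns held the fewest genes), and omitting each biosample. The limma fit was tested on simulated data. Promoter windows come from RefSeq (GRCm38.p6) and gene models from GENCODE vM21. Values of 2 of the 63 genes are not reported here by name.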

Additional observations from a re-analysis of the deposited data

Results flagged for a closer look

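In 136 groups of 4 libraries over the 34 named genes, 6 held a library apart from the other three by Dixon's test at 95%, where chance would give about 6.8. Cplx1 was at 113.83 CPM in normal input 3, against 75.7 to 80.0 in the others. Stx1a was at 2.35 CPM in normal pulldown 2 (22.1 to 31.8 in the others) and at 7.43 in paclitaxel pulldown 7 (16.0 to 18.3). Syt17 was at 8.60 CPM in paclitaxel pulldown 8 and 0 in the other three. Syt5 was at 108.21 CPM in paclitaxel pulldown 6 (42.0 to 48.6). Syt9 was at 267.74 CPM in normal pulldown 4 (380 to 404).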

How the results depend on the processing

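Counts of genes higher and lower in the pulldown were 6 and 15 in normal and 8 and 17 in paclitaxel ganglia. With median-ratio scaling they were 13 and 4, and 15 and 4. Quantile normalization left 6 lower in each treatment, and subsample 1 of biosample 7 alone gave 9 lower in normal and 4 higher after paclitaxel. With no filter on low values, 5 were higher and 10 lower after paclitaxel. Without the replicate block, the counts were 4 and 11 after paclitaxel, where the samples are paired by homogenate; in normal ganglia they were also 4 and 11. Without the 4 biosamples with the fewest pulldown genes, the counts after paclitaxel were 4 higher and 4 lower. Leaving out each biosample in turn gave 3 to 6 higher and 8 to 16 lower in normal ganglia and 3 to 9 and 5 to 17 after paclitaxel, with 6 of 21 calls and 5 of 25 kept in all 8 fits. The interaction gave 0 to 2 higher. For paclitaxel against normal pulldowns, 3 higher and 0 lower became 4 and 1 with a pseudocount of 0.1 and 1 higher with a pseudocount of 5. They became 0 with no filter or without the 4 biosamples, and 5 and 1 with a 5 CPM filter. Median-ratio scaling gave 1 and 1, quantile normalization 4 and 1, and subsample 1 alone 1 higher. Leaving out 1 biosample gave 0 to 5 higher. For inputs, 1 higher became 0 with no filter, quantile normalization, subsample 1 alone or without the 4 biosamples, 1 lower was added with median-ratio scaling, and leaving out 1 biosample gave 0 to 4 higher and 0 to 1 lower. The cause was not tested. The planned count test was not run, since the whole reads could not be recovered for all columns. Depth limits the low genes: 3 reads correspond to 0.0917 to 0.703 CPM.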
